A study of Homo sapiens with 2 samples.

Results

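The table of TCF4 binding sites in the lymphoma line TMD8 assigned 7 of its 661 distinct peaks to MBP, the gene of myelin basic protein, on chromosome 18. They are every peak that carries this gene name, and the gene was chosen by the ratio of ChIP over input reads. At 1 of its peaks this ratio ranked 2 in the table by the authors' normalized log2 ratio, which adds 1 read to each library, and 5 by the fold without added reads that is used below. The ratios below are therefore descriptions and carry no test. TMD8 is a cell line from a diffuse large B-cell lymphoma, of the subtype that resembles activated B cells (ABC-DLBCL). Per the labels its TCF4 copy number is not gained, and it carried a tetracycline-inducible TCF4 construct and was given 60 ng/ml doxycycline for 24 hours. Both libraries came from these induced cells: 1 from chromatin precipitated with a TCF4 antibody and 1 from whole cell extract without antibody, called the input. The construct, the induction and the line were therefore shared by both, and binding in uninduced cells was not analysed here. With 1 library of each kind there was no replicate, and the intervals given cover the counting error of reads only.

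TCF4, also called E2-2, belongs to the E proteins, helix-loop-helix transcription factors that bind DNA as dimers at short palindromic motifs called E-boxes, and it acts in B lymphoid and plasmacytoid dendritic cells. MBP holds transcription units that start far apart. The inner start gives the classic myelin basic proteins, which compact the myelin sheath made by oligodendrocytes, whereas the outer start gives the Golli transcripts, which read through part of the same gene and are known from cells of the immune system as well as from the nervous system. Which of these transcripts TMD8 cells make was not measured in these libraries.

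The deposited distances placed both starts on the hg19 build. The table names 3 RefSeq transcripts of MBP, and gives for each peak a distance to that transcript's start and end. The distances start a little to 1 side of each peak's centre, and the strand and sides were picked for the best agreement. With the minus strand so picked, they gave 1 start and 1 end within 1 bp for each transcript with several peaks. NM_002385 was named for 3 peaks and ran from an implied start at 74729055 to an implied end at 74690788, a length of 38.3 kb. NM_001025100, also named for 3 peaks, had its implied start at 74844774.5 and its end at 74724738.5, a length of 120 kb. NM_001025101 was named for 1 peak, so its side was chosen to match the other transcripts, and the match is no separate check. Its implied start at 74844773.5 and end at 74690787.5 lay 1 bp or less from theirs, while the other side missed by 229.5 bp. The start at 74844774.5 is called the outer (Golli) start and the one at 74729055 the inner (classic) start. They lie 116 kb apart, and 75.1% of the interval from the outer start to the shared end lies upstream of the inner start.

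The windows of 250 bases before the RefSeq starts are shown for orientation. Peak positions below are measured from the starts implied on hg19, not from these RefSeq starts. RefSeq's promoter table on GRCh38.p14 lists 2 starts for MBP, 115.728 kb apart on the minus strand. The starts implied by the deposited distances lie 115.719 kb apart, so the pairs are close but not identical. The sequences below run 5′ to 3′ on that strand and end at the base before the start. Capitals mark the letters CANNTG, the E-box, which reads as the same pattern on both strands.
Outer start, chr18:77132784-77133033: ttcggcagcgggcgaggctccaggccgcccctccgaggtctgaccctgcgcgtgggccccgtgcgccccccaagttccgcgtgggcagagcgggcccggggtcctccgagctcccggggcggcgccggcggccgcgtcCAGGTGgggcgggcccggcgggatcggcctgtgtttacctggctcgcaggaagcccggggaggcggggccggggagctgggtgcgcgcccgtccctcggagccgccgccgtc
Inner start, chr18:77017056-77017305: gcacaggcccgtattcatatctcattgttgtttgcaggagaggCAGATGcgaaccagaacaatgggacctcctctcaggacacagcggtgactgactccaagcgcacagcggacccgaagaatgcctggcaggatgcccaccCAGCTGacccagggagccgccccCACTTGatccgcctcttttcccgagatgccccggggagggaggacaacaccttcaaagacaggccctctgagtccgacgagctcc

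The outer window held 1 E-box, CAGGTG, from 112 to 107 bases before the start. The inner window held 3 E-boxes, of which the middle one, CAGCTG, lay from 108 to 103 bases before the start. Both Golli transcripts run across the inner start, so this window lies inside them, and whether it is exon there was not analysed. Such matches are common: CANNTG occurred in 61.8% of 35114 RefSeq windows of the same length, CAGGTG on either strand in 17.5% and CAGCTG in 14.0%. These letters were not tied to binding. On hg19 the peak nearest to an implied start was centred 12.8 kb from it, and the windows on GRCh38.p14 were not compared with the peaks. The outer window had a G and C content of 80.4% and the inner one of 60.4%, beside a median of 58.0% over all windows. The hg19 sequence under the peaks was not used here.

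The peaks are numbered 1 to 7 in the direction of transcription, from high to low coordinates on chromosome 18 of hg19, and positions are those of the deposited table. They spread over 198 kb, from 74666276 to 74864276. Of the 7, 1 lay upstream of the outer start, 3 between the outer and the inner start, 2 between the inner start and the end, and 1 downstream of the end. None was in the authors' promoter class, which holds 36 of the 661 peaks (5.45%). The nearest to any start was 12.8 kb from it, so both starts and the stretch around them were free of listed peaks. The table is limited to peaks related to signature genes, and a place without a listed peak cannot be called unbound.

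**Figure D1:**
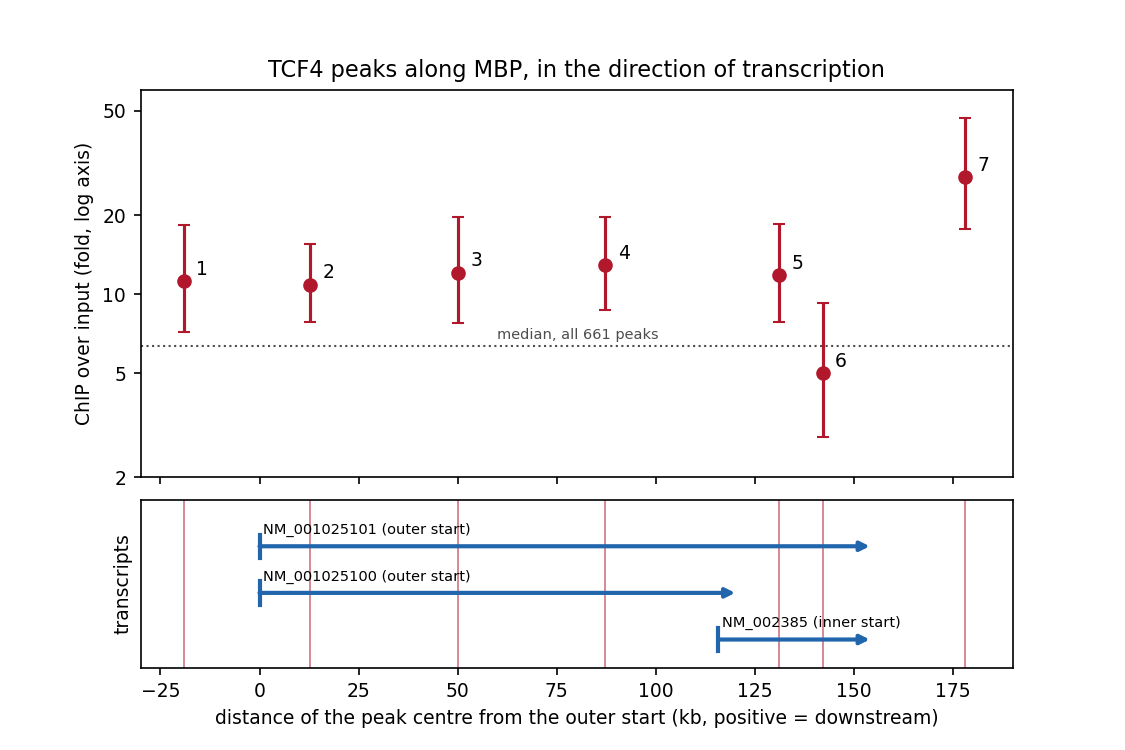
Upper panel: fold of ChIP over input (log axis) of the 7 MBP peaks against the distance of their centre from the outer start in kb, with 95% intervals of counting error, and a dotted line at the median of all 661 peaks (6.36). Lower panel: the 3 transcripts named in the table, drawn from start to end from the deposited distances, with red lines at the peaks. Peaks 1 to 5 lie between 10.9 and 12.9-fold, peak 6 at 4.99-fold and peak 7, past the end of the gene, at 27.9-fold.

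Upstream of the whole gene lay peak 1, from 74863634 to 74864276, 642 bp wide and centred 19.2 kb before the outer start. Its 188 ChIP reads stood beside 22 input reads. The library scaling was 1.31, taken from the authors' normalized ratio, and ChIP over input times this scaling gave a fold of 11.2 (95% exact interval 7.18 to 18.3). The peak was thus outside all 3 transcripts, and its named transcript was a Golli one.

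Between the starts, where only the Golli transcripts run, lay peaks 2, 3 and 4. Peak 2, from 74831317 to 74832701, was centred 12.8 kb after the outer start and had 332 reads in the ChIP and 40 in the input library, a fold of 10.9 (7.81 to 15.5). At 1384 bp it was, together with peak 5, the widest of the 7, and it had the most input reads of them. Peak 3, from 74794407 to 74794779, lay 50.2 kb after the outer start and 65.5 kb before the inner one. Within 372 bp, 203 ChIP reads met 22 input reads, a fold of 12.1 (7.77 to 19.7). Peak 4, from 74757047 to 74757951, lay 87.3 kb after the outer start and 28.4 kb before the inner one, with 275 ChIP reads in 904 bp against 28 input reads, or 12.9-fold (8.70 to 19.7). The 3 intervals overlapped, and these peaks were not ordered. Overlap of intervals is given here and below as a description, and is not a test of whether peaks differ. Together their 810 ChIP and 90 input reads gave a fold of 11.8 (9.47 to 14.8).

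Between the inner start and the shared end lay peaks 5 and 6, inside the classic transcript and also inside the longer Golli transcript NM_001025101, which runs to the same end. They were the closest pair, 11.1 kb apart from centre to centre. Peak 5, from 74713076 to 74714460, was centred 15.3 kb after the inner start and had 234 ChIP reads against 26 in the input, a fold of 11.8 (7.84 to 18.4). Peak 6, from 74702580 to 74702741, lay 26.4 kb after the inner start and 11.9 kb before the end, with 61 ChIP reads against 16 in the input, or 4.99-fold (2.84 to 9.28). It was the narrowest of the 7 at 161 bp and had the lowest fold, though its interval overlapped those of peaks 1 to 5. Pooled, this pair had a fold of 9.20 (6.64 to 13.0), an interval that overlaps that of peaks 2, 3 and 4 together.

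Past the shared end lay peak 7, from 74666276 to 74667001, centred 24.1 kb downstream of the end, 62.4 kb from the inner start and 178 kb from the outer one. It held 405 ChIP reads, the most of the 7, and 19 input reads in 725 bp, a fold of 27.9 (17.6 to 46.9). This interval overlapped those of peaks 1, 3, 4 and 5 at their upper ends and lay above those of peaks 2 and 6. Its normalized log2 ratio as deposited by the authors, hereafter its score, was 4.73 and ranked 2 in the table, between HIVEP1, a zinc finger factor gene, with 4.83 and CRYZ, a quinone reductase gene, with 4.73. By the fold itself it ranked 5, below CRYZ with 28.3 (16.6 to 52.5) and HIVEP1 with 29.8 (19.3 to 48.6), and these intervals overlapped. The name MBP is the authors' assignment. In RefSeq on GRCh38.p14 the next protein-coding gene past this end is ZNF236, which the table does not name, and whether peak 7 lies inside it was not analysed here. GALR1, a galanin receptor gene, is the next one beyond the outer start and is not named either.

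**Figure D2:**
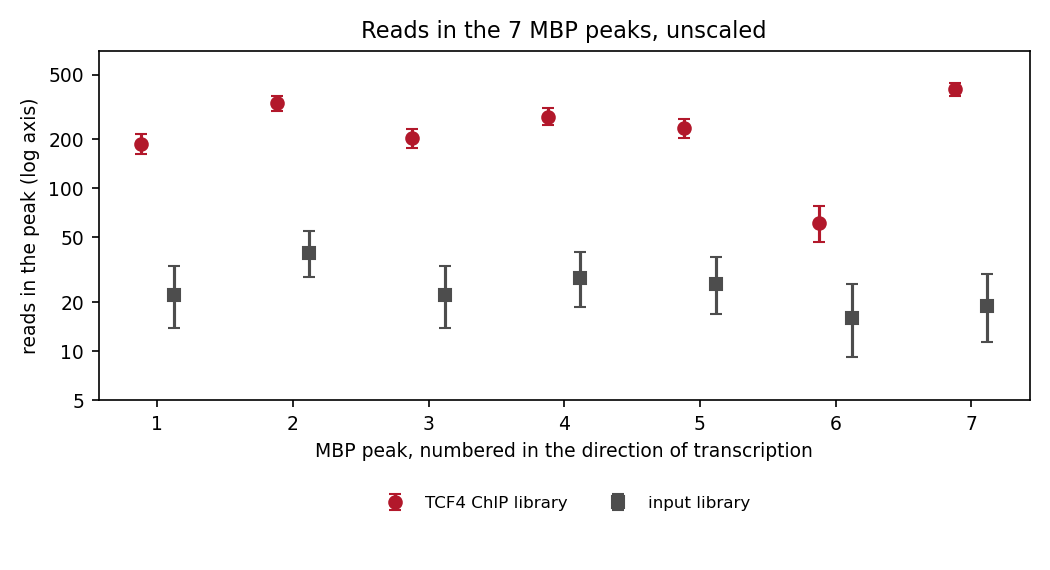
Reads in each of the 7 MBP peaks (log axis) in the ChIP library (circles) and the input library (squares), unscaled, with exact Poisson 95% intervals. ChIP reads run from 61 at peak 6 to 405 at peak 7, and input reads from 16 to 40.

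Spacing was similar along most of the locus. Neighbouring peaks lay 31.9, 37.4, 37.1 and 43.7 kb apart from peak 1 to peak 5, then 11.1 kb from peak 5 to peak 6 and 36.02 kb from peak 6 to peak 7, measured between centres. The longest stretch without a listed peak, 42.6 kb, lay between peaks 4 and 5 and contained both the inner start and the end of the short Golli transcript NM_001025100, which stops 4.32 kb past that start. Beyond the locus the nearest listed peak on chromosome 18 was 1.62 Mb away on the side of peak 7, at TSHZ1, a zinc finger homeobox gene. On the other side it was 2.26 Mb away, at NFATC1, a calcium-responsive transcription factor gene.

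Summed over the 7 peaks, 1698 ChIP and 173 input reads gave a fold of 12.9 (11.0 to 15.1). Without peak 7 the fold was 11.0 (9.30 to 13.1). Their median fold was 11.8, beside 6.36 over the table. In 7 of 7 MBP peaks the lower end of the interval exceeded 2, where 85.5% of all peaks did, and in 6 of 7 it exceeded 4, where 43.9% did. A fold above 10 was found in 6 of 7, where 18.3% of all peaks had it. The choice of MBP used this ratio, and nothing is read from these counts. The other 6 scores ran from 2.26 at peak 6, rank 451 of 661, to 3.64 at peak 4, rank 48, and the lowest score in the table was 1.05.

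Peaks 3 and 7 had almost the same ChIP reads per length, while input reads per length were higher at peak 3. Peak 7 held 559 ChIP and 26.2 input reads per kb, and peak 3 held 546 and 59.1. In the authors' normalized density peak 7 ranked 6 and peak 3 ranked 7 of 661 in ChIP, whereas in input density peak 3 ranked 43 and peak 7 ranked 454. Peak 6 had the highest input density of the 7, 1.74, which ranked 5 in the table, and a ChIP density of 8.70, rank 18. The peak with the lowest fold of the 7 was thus high in reads per length in both libraries. Peak 5 stood at the other end with the lowest densities of the 7, 3.88 in ChIP and 0.329 in input. The unit of these densities is not given in the file headers, so only their order and ratio are used.

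**Figure D3:**
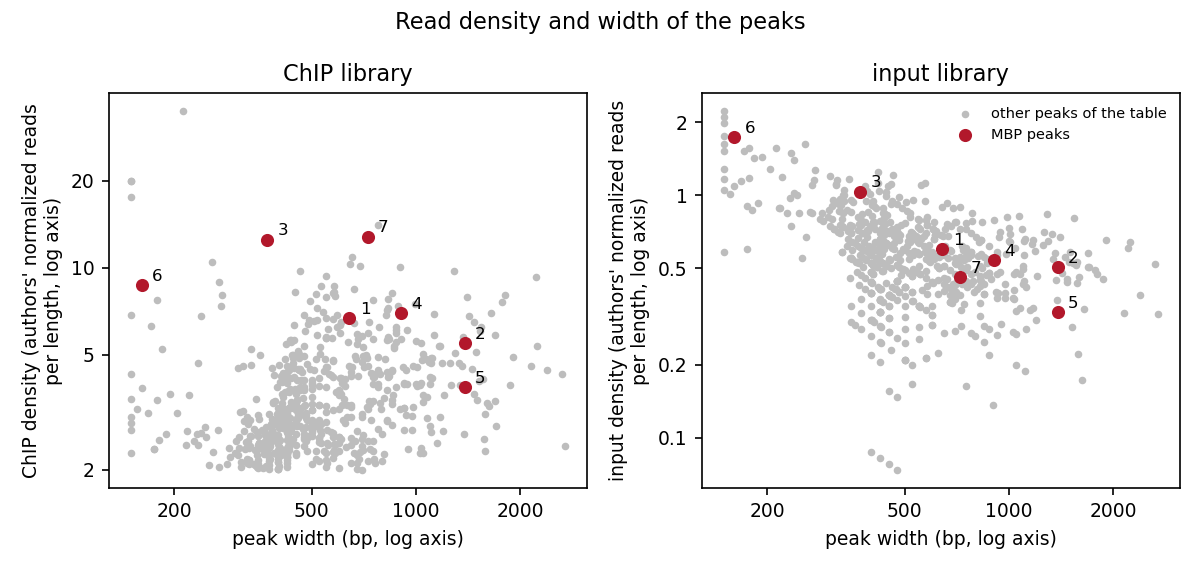
Read density as deposited by the authors (log axis) against peak width in bp (log axis) for the ChIP library (left) and the input library (right), with MBP peaks in red and numbered and other peaks in grey. Peaks 3 and 7 are level in ChIP density, while peaks 6 and 3 have the highest input densities of the 7.

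The shapes of the peaks differed too. The apex, the position of highest signal, lay 2 bp from the border of peak 6 and 31 bp from the border of peak 3, at 98.8% and 91.7% of their widths. An apex within 50 bp of a border occurred in 30 of 661 peaks (4.54%). In peaks 1, 2, 4, 5 and 7 the apex lay 235 to 439 bp inside. Peak 6 was also among the 23 peaks of 200 bp or less, which had a median fold of 3.20 and a median input density of 1.29, beside 0.559 over the table. Whether width or apex position bears on the low fold of peak 6 was not tested. Median width was 725 bp at MBP and 492 bp over the table.

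The median input density at MBP was close to that of the table, though single peaks ran from 0.329 at peak 5 to 1.74 at peak 6. The median input density of the 7 peaks was 0.543, beside 0.559 over all peaks, 0.631 over peaks on chromosome 18 and 0.547 over peaks on other chromosomes. Median ChIP density was 6.99 at MBP and 3.25 over all peaks. The 7 peaks made up 1.06% of the peaks and 2.36% of the 71988 ChIP reads in them. MBP was chosen by the ratio of these ChIP and input reads, so the values are descriptions only.

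The authors deposited a pair of p-values per peak. Their −log10 p over the whole distribution was infinite at 6 of the 7 MBP peaks, as at 242 of the 661 peaks, and 84.1 at peak 6, the one with the lowest fold. Their local −log10 p was 6.02 at peak 1 and 5.80 at peak 3, but 4.57 at peak 7 and 2.03 at peak 4. The local value of peak 4 is the lowest in the table, shared by 19 peaks, while its score ranked 48.

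Few genes of the table had as many peaks as MBP: of 275 genes, 11 had 7 or more, and 7 had more than 7. Only those with the most peaks are named next. NEDD4L, a ubiquitin ligase gene on chromosome 18, and FOXP1, a forkhead factor gene, had 10 each, and TRAK1, a mitochondrial transport adaptor gene, and BCL2, which encodes an inhibitor of apoptosis, had 9 each. Pooled folds were 7.83 (6.81 to 9.03) at NEDD4L, 5.35 (4.40 to 6.55) at FOXP1, 8.07 (7.08 to 9.23) at TRAK1 and 7.63 (6.75 to 8.66) at BCL2, and MBP had 12.9 (11.0 to 15.1), or 11.0 (9.30 to 13.1) without peak 7. Other genes with at least 5 peaks, named after their values were seen, had pooled folds with intervals that overlap that of MBP. PITRM1, a mitochondrial peptidase gene, had a pooled fold of 13.5 (11.0 to 16.7), above that of MBP, and NFATC1 had 10.7 (9.06 to 12.7). SHB, an adaptor protein gene, had 9.97 (8.41 to 11.9), and BICD1, a motor adaptor gene, had 9.89 (8.47 to 11.6). These values were not tested against each other, since MBP was chosen for its ratio. Among the 31 genes with at least 5 peaks, those most like MBP in number of peaks and then in highest score were XPNPEP1, an aminopeptidase gene, BCL11A, a lymphoid zinc finger factor gene, and ALCAM, a cell adhesion gene, with 7 peaks each. Their highest scores were 3.51, 3.49 and 2.60, so the likeness lies in the number of peaks.

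**Figure D4:**
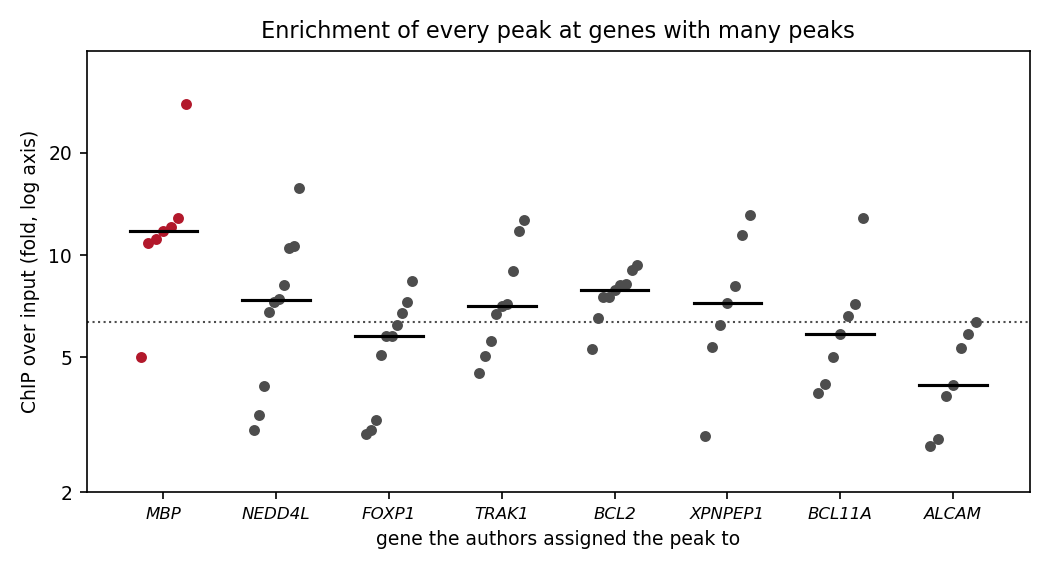
Fold of ChIP over input (log axis) of every peak at MBP (red) and at 7 other genes, named for their number of peaks (grey), with a bar at each gene's median and a dotted line at the median of all 661 peaks (6.36). MBP has a median of 11.8-fold and 1 peak, at 27.9-fold, above every peak of the other genes shown. MBP was chosen for this ratio and the others were not. PITRM1, not shown, had a higher median of 14.0-fold and a highest peak of 24.7-fold.

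All 7 MBP peaks were marked Up in the authors' signature column, the meaning of which is not given beyond its header. Most of the 31 genes with at least 5 peaks carried the same mark, among them NEDD4L, BCL2 and XPNPEP1, and the rest were marked Down. The mark was thus not particular to MBP, and its share over all 661 peaks was not computed here. MBP itself is on the list of 20 myelin and oligodendrocyte genes, so its own naming was fixed by the choice of gene. No other member of that list was among the 275 genes named in the table. MOG and MAG, which encode other myelin proteins, and OLIG2 and SOX10, transcription factors of oligodendrocytes, were not among its genes. Of 12 B cell genes, 3 were named: BLK, a Src-family kinase gene, with 2 peaks of 9.17 and 12.1-fold, IRF4, a plasma cell factor gene, with 4 peaks of 5.03 to 16.9-fold, and SPIB, an Ets factor gene, with 1 peak of 11.6-fold. The table lists signature genes only, so these counts describe the table and not where TCF4 is absent. No gene expression was measured in these libraries, so the labelled cell type could not be checked against its markers.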

How the data were processed

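TCF4 ChIP-seq and input libraries of TMD8 cells, 1 of each, were analysed from 1 peak table. BWA, GATK and hg19 are named in the submitters' processing notes, without version or role, but no peak caller is given in the sources used here. Spike-in chromatin with a matching antibody went into the lysates, per the labels' protocols, and no source used here says whether it set the library scaling.

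The authors deposited whole-number counts of reads per peak, per the file headers, under the names TCF4 and IC. The latter was taken as the input, the only other library. Their deposited log2 ratio equalled log2 of reads plus 1 over reads plus 1 in 661 of 661 peaks (tolerance 1e-06), and their normalized log2 ratio was that plus 0.39, a scaling of 1.31. The deposited signal, a read density, equalled reads over width times 1 constant per library. The authors' −log10 p-values were used for description only. Of 662 lines, 661 were distinct intervals. Distances and classes, other values the authors deposited, were measured from the centre of a partner region. Width is end minus start. The table's total is not a library depth, which is unknown here.

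Folds are reads over reads times the scaling, without pseudocount, with exact Clopper-Pearson 95% intervals (SciPy 1.17.1), tested on simulated data. PCR copies are not independent, so intervals cover counting error only. Transcript starts were solved from the distances, trying both strands and both sides of each peak. RefSeq promoters are on GRCh38.p14 and were not mixed with hg19 positions. Besides MBP, the genes named are the nearest listed on chromosome 18, those with most peaks, those next to it in score, those most like it and listed members of the gene lists. PITRM1, SHB and BICD1 were named for their pooled folds, ZNF236 and GALR1 as neighbours, and unlisted myelin genes as examples, outside that rule and after the table was seen. Members, lists and alternatives were chosen with earlier results of these data known.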

Additional observations from a re-analysis of the deposited data

How the results depend on the processing

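Of 60 recomputed values, 50 stayed within their counting interval, within 1.5 times the rank or count, or within the width of the peak, and 10 moved. Without library scaling the pooled fold was 9.82, and folds per peak ran from 3.81 to 21.3. By ChIP read density the ranks became 53 for peak 1, 7 for peak 3, 249 for peak 5, 18 for peak 6 and 6 for peak 7. By number of ChIP reads they became 22 for peak 2 and 17 for peak 7, and by the lower end of the interval 52 for peak 2. By the fold without pseudocount, an alternative chosen after seeing the data, peak 7 ranked 5. Adding 1 read to both libraries gave folds of 4.78 to 26.6, and leaving out each peak in turn gave pooled folds of 11.0 to 13.7. Distances from the peak's own centre differed from the deposited ones by 14.5 to 398 bp. No paired analysis was possible because there is only 1 library of each kind. Few input reads, 16 to 40 per peak, limit every fold.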
